A study of Mus musculus with 7 samples.

Results

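The genes described here encode the contractile apparatus of smooth muscle apart from its actins. They were chosen by name as Myh11, Cnn1, Tagln, Des, Tpm1, Tpm2, Smtn, Cald1 and Mylk, and every probe set that the array's gene table assigns to one of these 9 genes was taken. Of the 12422 probe sets on the array that are not controls, 9 were found, for 8 of the 9 genes. No probe set of the table used here names Cald1, the gene of caldesmon, so it was not analysed here. Tpm2 had 2 probe sets and each of the other genes had 1. In all, 8 probe sets, 1 for each gene, had signals above the floor described below, and the second Tpm2 probe set lay under it on all 7 arrays.

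Each of 7 Affymetrix U74Av2 arrays measured RNA from pooled uteri of C57Bl/6 females whose ovaries had been removed 7 days earlier, so all groups lacked ovarian hormones. The label gives their age as 10 to 11 weeks, while the housing protocol has them arrive at that age and acclimate for 4 weeks. In 6 groups the mice received dihydrotestosterone (DHT), a potent androgen that aromatase does not turn into estrogen. The dose was 0.1 mg per mouse, injected under the skin, and the mice were killed 1, 3, 6, 12, 18 or 24 h later. These times are those of the sample titles; the series' design text names no 18 h group and instead a time shorter than 1 h, so the time of the 18 h array is less sure than the others. Without that array the median late minus early difference of the genes below was 0.42, as with it. The control group received vehicle and was killed 24 h later, so only the 24 h DHT array has a control of the same delay, and at 1 to 18 h DHT and the injection itself cannot be told apart. Each group is 1 array of a pool; the protocol names 10 mice but leaves it unclear how many uteri a pool held. The question was how transcripts of the uterus follow DHT over a day.

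Smooth muscle contracts when calcium-bound calmodulin activates myosin light chain kinase, which phosphorylates the light chain of smooth muscle myosin and lets the myosin heads pull on actin filaments. Tropomyosin, calponin and caldesmon lie along those filaments and temper the pull, while desmin filaments tie the contractile units to each other and to the cell surface. In the uterus this apparatus fills the myometrium, whose muscle layers surround the stroma and the epithelium. Many of these genes are known to be driven by serum response factor with its partner myocardin at a short DNA element, the CArG box. The arrays measured the whole organ, so fewer or more muscle cells and less or more RNA per muscle cell cannot be told apart.

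On all 8 probe sets with signal, the 3 late arrays (12, 18 and 24 h) lay above the 3 early arrays (1, 3 and 6 h) without overlap. The same held for 8.8 percent of the 8421 probe sets tested and for 10.5 percent of the 3486 bright ones, those with a mean signal of at least 583.6, to which all 8 belong. The late mean was between 1.24-fold (Tpm2) and 1.69-fold (Cnn1) the early mean, with a median log2 difference of 0.42 over the 8 genes, against -0.0027 over all 6326 genes. None of the 8 probe sets passed limma after adjustment over all probe sets in any contrast, and no probe set of the whole array passed for late against early. The differences below are therefore given as values. An exact two-sided permutation of 3 arrays against 3 cannot give a p below 0.10.

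**Figure D1:**
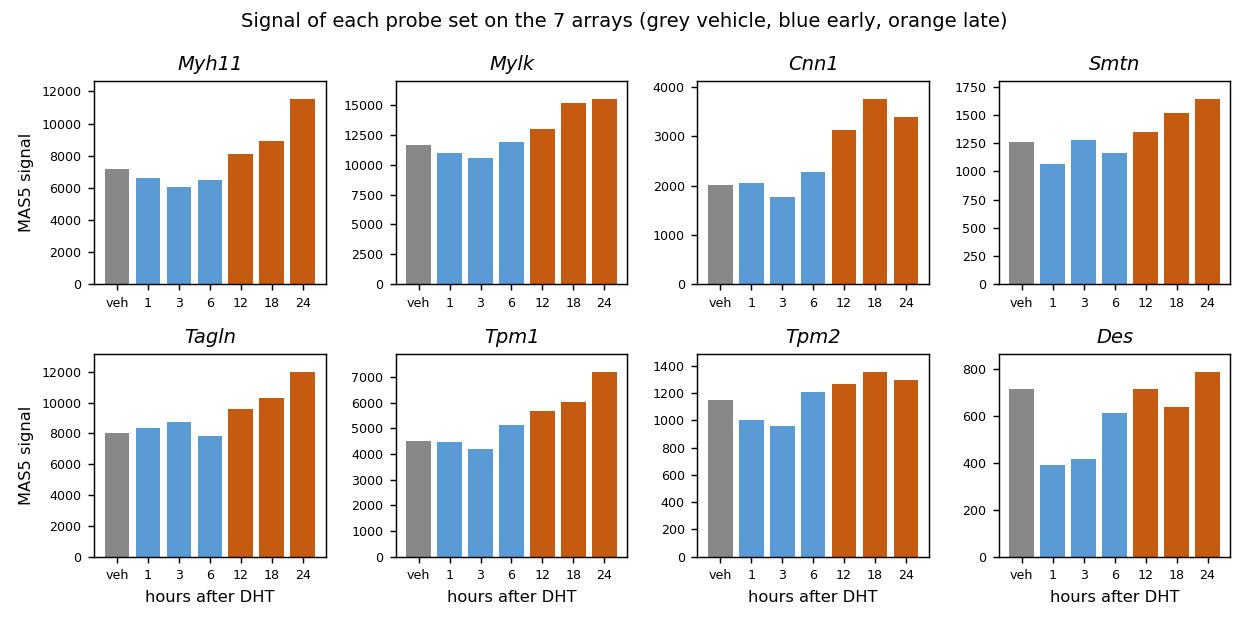
Deposited MAS5 signal (linear, arbitrary units, axis from 0) of the 8 probe sets on the 7 arrays, 1 bar per array, with vehicle in grey, the early DHT arrays in blue and the late DHT arrays in orange. On every panel the lowest orange bar is taller than the tallest blue bar; only in Des does an orange bar, 639.4 at 18 h, stand below vehicle at 716.2.

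The promoter windows of Cnn1 and Mylk are shown because Cnn1 had the largest difference between the phases and because Mylk held the only match to a searched element. Both windows are from RefSeq on build GRCm38.p6 and run from 250 bases before to 50 bases after an annotated start. They lie at chr9:22099003-22099302 for Cnn1 and at chr16:34784700-34784999 for Mylk, both on the plus strand. Letters in capitals mark the element AGAACA, the 6 bases that the androgen and glucocorticoid receptors recognise as part of their longer sites.
Cnn1: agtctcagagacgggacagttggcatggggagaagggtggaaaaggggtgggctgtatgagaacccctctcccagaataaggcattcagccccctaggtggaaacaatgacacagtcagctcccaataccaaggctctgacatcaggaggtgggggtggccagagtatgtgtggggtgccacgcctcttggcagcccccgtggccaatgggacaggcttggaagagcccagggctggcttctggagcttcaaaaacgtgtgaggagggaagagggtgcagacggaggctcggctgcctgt
Mylk: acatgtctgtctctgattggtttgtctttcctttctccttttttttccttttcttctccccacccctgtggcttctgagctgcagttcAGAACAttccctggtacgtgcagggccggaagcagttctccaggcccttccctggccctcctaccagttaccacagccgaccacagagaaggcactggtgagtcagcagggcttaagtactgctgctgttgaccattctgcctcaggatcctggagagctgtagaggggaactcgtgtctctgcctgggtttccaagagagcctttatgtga

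Both strands were searched for AGAACA and for the CArG box in the windows of 7 genes (Des, Tpm2, Cald1 with 2 windows, Cnn1, Tpm1, Smtn and Mylk), and the table holds none for Tagln or Myh11. AGAACA was found in 1 of these 8 windows, that of Mylk, on the strand of the gene, with its first base at position -162 from a start that lies inside the annotated gene, downstream of its first base. Among all 32851 windows of this length, 19 percent hold it. A CArG box, searched without mismatch as CCWWWWWWGG with W for A or T, was found in none of the 8 windows and in 1.63 percent of all windows. Looser forms of the element were not searched for. These matches describe letters in a short window and say nothing about other stretches of the genes.

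The genes of the motor itself and of the kinase that turns it on had their highest signal at 24 h. Myh11, the heavy chain of smooth muscle myosin, had a signal of 7170.5 on vehicle, of 6598.5, 6023.6 and 6466.5 on the 1, 3 and 6 h arrays, and of 8076.0, 8895.7 and 11499.6 on the 12, 18 and 24 h arrays. All 3 early arrays were below vehicle and all 3 late arrays above it, and the highest array was 1.91-fold the lowest. The late mean of Myh11 exceeded the early mean by 0.56 ± 0.14 SE on the log2 scale (adjusted p = 0.322 in limma). At 24 h, against the vehicle of the same delay, Myh11 was 1.60-fold higher, a description of 2 arrays.

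Mylk, which encodes myosin light chain kinase, had signals of 11674.8 on vehicle, 11031.4, 10592.9 and 11889.4 on the 1, 3 and 6 h arrays, and 13013.5, 15225.2 and 15496.1 on those of 12, 18 and 24 h. Its early arrays lay on both sides of vehicle and close to it, and its late arrays were all above. Its late mean lay 0.38 ± 0.11 SE above the early one on the log2 scale (adjusted p = 0.346 in limma), and the 24 h array was 1.33-fold the vehicle array. A single probe set does not tell different transcripts of this gene apart.

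Calponin 1, encoded by Cnn1, binds actin and slows the myosin motor, and is among the proteins by which differentiated smooth muscle is recognised. Its signals were 2019.8 on vehicle, 2055.8, 1765.3 and 2277.7 on the 1, 3 and 6 h arrays, and 3134.1, 3745.9 and 3390.9 on those of 12, 18 and 24 h. The suffix of its only probe set marks sequence shared between transcripts, so these signals may not come from Cnn1 alone. The early arrays surrounded vehicle and every late array was at least 1.55-fold above it, with the highest at 18 h rather than at 24 h. By unadjusted p Cnn1 ranked 30th of 8421 probe sets for late minus early, with a difference of 0.76 ± 0.12 SE (adjusted p = 0.212 in limma). Against vehicle the late mean was also higher by 0.76 ± 0.17 SE (adjusted p = 0.207 in limma), since the early mean and vehicle differed by 0.0015 ± 0.17 SE.

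Smoothelin, the product of Smtn, binds actin in contractile smooth muscle and is lost early when such cells dedifferentiate. Its signal was 1258.2 on vehicle, 1061.9, 1278.7 and 1165.5 on the 1, 3 and 6 h arrays, and 1346.5, 1518.7 and 1639.0 on those of 12, 18 and 24 h. Only the lowest late array was near the early range, 1346.5 against 1278.7. The Smtn phases differed by 0.36 ± 0.11 SE (adjusted p = 0.380 in limma).

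Tagln encodes transgelin or SM22-alpha, a small actin-binding relative of calponin. Its signals were 8030.5 on vehicle, 8380.8, 8747.7 and 7831.3 on the 1, 3 and 6 h arrays, and 9573.2, 10323.7 and 11979.3 on those of 12, 18 and 24 h. Unlike the other genes it was slightly above vehicle at both 1 and 3 h, by 0.06 and 0.12 on the log2 scale, and its lowest array was that of 6 h. Late exceeded early by 0.35 ± 0.11 SE (adjusted p = 0.401 in limma), and the 24 h array was 1.49-fold the vehicle array.

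The tropomyosins, rods that wind along the actin filament, are encoded by Tpm1 and Tpm2. Tpm1 had signals of 4505.5 on vehicle, 4479.0, 4191.6 and 5129.5 on the 1, 3 and 6 h arrays, and 5678.1, 6033.8 and 7187.6 on those of 12, 18 and 24 h. It was already above vehicle at 6 h, and late exceeded early by 0.45 ± 0.12 SE (adjusted p = 0.337 in limma). Tpm2 had signals of 1153.5 on vehicle, 999.9, 957.4 and 1210.6 on the 1, 3 and 6 h arrays, and 1267.8, 1354.5 and 1295.5 on those of 12, 18 and 24 h. Its 12 h array was close to its 6 h array, and the difference of 0.31 ± 0.11 SE was the smallest of the 8 (adjusted p = 0.417 in limma). The second Tpm2 probe set had signals between 16.1 and 94.8, all under the floor, and gives no measure. Both genes also have transcripts used outside muscle, and 1 probe set per gene does not tell them apart.

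Des encodes desmin, the intermediate filament protein of muscle cells, and followed a course of its own. Its signals were 716.2 on vehicle, 390.2, 418.5 and 612.1 on the 1, 3 and 6 h arrays, and 717.4, 639.4 and 787.4 on those of 12, 18 and 24 h. The early arrays were all below vehicle, at 0.54-fold at 1 h and 0.58-fold at 3 h, while the late arrays were near it. The separation of the phases, 0.62 ± 0.20 SE (adjusted p = 0.410 in limma), thus lay in low early values, and the late mean differed from vehicle by -0.0082 ± 0.28 SE (adjusted p = 1 in limma). The early mean was lower than vehicle by a log2 difference of -0.63 ± 0.28 SE (adjusted p = 0.828 in limma). For the vehicle array there is no replicate, and a high Des signal particular to it cannot be told apart from low early ones.

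**Figure D2:**
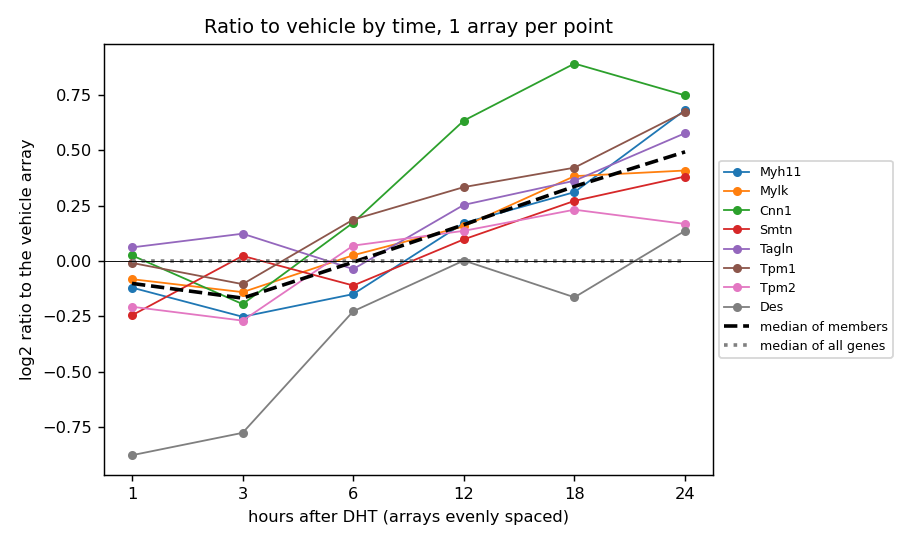
Log2 ratio of each of the 8 genes to the vehicle array (vertical axis) at the 6 times after DHT (horizontal axis, arrays evenly spaced), with the median of the 8 genes as a dashed line and that of all 6326 genes as a dotted line at 0. The dashed line runs from -0.10 at 1 h to 0.49 at 24 h, with Cnn1 highest from 12 h on and Des lowest at every time.

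Set against vehicle, the median log2 ratio of the 8 genes was -0.10, -0.17 and -0.0050 on the early arrays in order of time and 0.16, 0.34 and 0.49 on the late ones, while that of all genes was 0.00 each time. The number of the 8 genes above vehicle was 2, 2 and 4 on the early arrays and 8, 7 and 8 on the late ones; on all 3 late arrays 7 of 8 lay above both vehicle and the early arrays (7.01 percent of all probe sets, 8.89 percent of bright ones). All ratios share the 1 vehicle array, so they are not independent of each other. At least 1.5-fold below vehicle was Des alone, on the 1 h array, where 3.15 percent of all probe sets tested were as far below and 3.24 percent as far above, and on the 3 h array, with 5.04 and 5.07 percent. Among bright probe sets 1.15 percent (1 h) and 2.35 percent (3 h) were as far below. None of the 8 genes differed 1.5-fold on the 6 h array, where 6.6 percent of all probe sets were higher and 6.79 percent lower. At least 1.5-fold above vehicle were Cnn1 on the 12 h array (8.54 percent of all probe sets higher, 7.37 percent lower), Cnn1 on the 18 h array (5.76 and 5.65 percent), and Cnn1, Myh11 and Tpm1 on the 24 h array (5.08 and 5.57 percent). The 1 of 8 genes past this fold at 12 and 18 h is thus near the share of the whole array. None of the 8 genes was 2-fold from vehicle at 24 h, where 0.938 percent of all probe sets were that far above.

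How far the 24 h array stood above vehicle depended on scaling for some of the genes. Mylk, Tagln, Myh11 and Tpm1 are among the brightest probe sets, and whether brightness plays a part was not tested. The 107 probe sets with a mean signal of at least 8000 include Mylk and Tagln. Their median log2 ratio to vehicle was -0.05, 0.10 and -0.10 at 1, 3 and 6 h. At 12, 18 and 24 h it was -0.17, 0.0042 and 0.17. For the 177 between 4000 and 8000, which include Myh11 and Tpm1, it was -0.02, 0.02 and 0.02 at 1, 3 and 6 h. At 12, 18 and 24 h it was 0.05, 0.09 and 0.13. These signal ranges were chosen after the data were seen. Quantile normalization removes such shifts whether they are technical or real. After it, the 24 h ratios were 0.71 for Cnn1, 0.58 for Tpm1, 0.49 for Myh11, 0.39 for Tagln and 0.21 for Mylk. They were 0.39 for Smtn, 0.17 for Tpm2 and 0.14 for Des, against 0.38, 0.17 and 0.14 before it. Only Cnn1 then remained at least 1.5-fold above vehicle (5.14 percent of all probe sets), and the median of the 8 genes at 24 h was 0.39 instead of 0.49. The late minus early difference stayed positive for all 8 genes, with a median of 0.38.

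**Figure D3:**
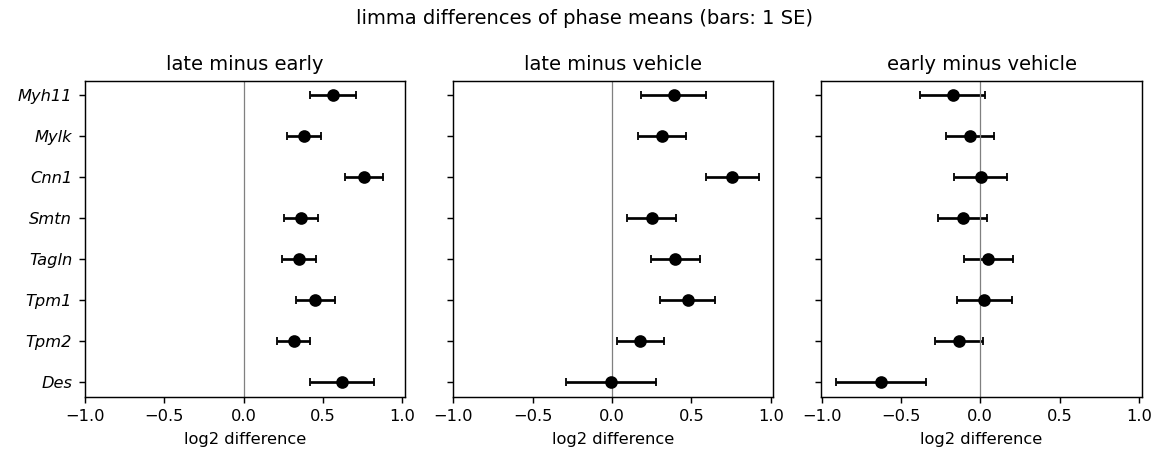
Log2 differences between phase means (horizontal axis) for the 8 genes (rows) in 3 comparisons, with bars of 1 SE from limma. Late minus early lies right of 0 for all 8 genes; late minus vehicle does for 7, with Des at -0.0082.

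In limma the late phase against the early one gave an unadjusted p under 0.05 for all 8 probe sets, a level that 5.76 percent of all probe sets reached in that direction and 4.49 percent in the other. The smallest adjusted p among them was 0.212 (Cnn1). Late against vehicle, Tpm1, Tagln and Cnn1 had an unadjusted p under 0.05 (5.53 percent of all probe sets higher, 6.19 percent lower), at log2 differences of 0.48, 0.40 and 0.76. Early against vehicle gave 0 of 8 in either direction (2.49 percent higher and 3.84 percent lower over the array). After adjustment, 0.309 percent of all probe sets were lower late than on vehicle and 0.273 percent lower early than on vehicle, none of them among the 8. A slope on the logarithm of hours over the 6 DHT arrays, which leaves out vehicle, was positive for all 8 genes, with an unadjusted p under 0.05 for 7 (5.26 percent of all probe sets with a positive and 5.32 percent with a negative slope). It was steepest for Des, at 0.22 ± 0.04 SE on the log2 scale for each doubling of hours (adjusted p = 0.341 in limma), and for Cnn1, at 0.22 ± 0.05 SE (adjusted p = 0.368 in limma). Tagln, at 0.10 ± 0.04 SE, was the gene that missed an unadjusted p of 0.05.

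Over the 7 arrays the log2 signals of the 8 genes had Pearson correlations between 0.46 (Tagln with Des) and 0.96 (Cnn1 with Mylk), with a median of 0.86 over the 28 pairs. These values describe 7 arrays that each carry all 8 probe sets, so shared array effects enter every pair. The lowest values mostly involve Des or Tpm2, while Des with Tpm2 had 0.87. The highest are those of Mylk with Cnn1 (0.96), Mylk with Tpm1 (0.95), and Myh11 with Tpm1 and with Mylk (0.94 each).

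The 10 other genes named next had the courses most like the median of the 8 genes, among 753 with a log2 range of at least 1 over the 7 arrays. The closest was Pcp4l1, a gene related to Pcp4, with a Pearson correlation of 0.98. Its signal was 722.1 on vehicle, 583.3 at 3 h and 1175.8 at 24 h. Its dimmer probe set had a late minus early difference of 0.06 against 0.70 for this one, so the likeness rests on 1 probe set. Second was Actg2, the enteric actin of smooth muscle, with 0.98 and signals from 1668.7 at 3 h to 6895.3 at 24 h. Sh3bgr followed with 0.96 and signals from 409.0 at 3 h to 901.7 at 24 h. Of the rest, Racgap1 (0.95), Kif20a (0.93) and Ckap2 (0.93) are genes of cell division, Penk (0.94) encodes proenkephalin, Ptgr1 (0.92) a prostaglandin reductase, Washc3 (0.93) a subunit of an actin-nucleating complex and Wfdc18 (0.91) a secreted protein. The second Penk probe set above the floor gave a late minus early difference of -0.03 against 0.61, so this likeness too rests on 1 probe set. Kif20a was at or under the floor on 3 arrays and Wfdc18 on 2. With 7 arrays, 16 of the 753 genes had a correlation above 0.9.

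Of 37 genes that work beside these in the contractile unit, actins included, 25 were above the filter; 18 had a positive late minus early difference, with a median of 0.13, and none passed limma in any contrast (7 with an unadjusted p under 0.05, all higher). Over the array 48.4 percent of genes had a positive difference and 5.76 percent of probe sets were higher at that p. The largest late minus vehicle differences were those of the actins Acta1 (2.89), Actg2 (1.28) and Actc1 (0.94), and of Pdlim3 (0.78), a PDZ and LIM protein of the actin-anchoring discs. Actg2, at 1.28 ± 0.26 SE (adjusted p = 0.189 in limma), and Actc1, at 0.94 ± 0.17 SE (adjusted p = 0.156 in limma), differed more from vehicle than any of the 8 genes, but the gap between them was not tested. The probe sets of Actg2 and Actc1 carry a suffix for sequence shared within a family, so signal may be shared among actins.

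Of 22 regulators of smooth muscle transcription, 15 were above the filter, and the table names no probe set for Srf or Myocd. A positive late minus early difference was found for 4 of the 15, the median was -0.13, and none passed limma in any contrast (2 with an unadjusted p under 0.05, both lower). The share over the array was 48.4 percent of genes with a positive difference and 4.49 percent of probe sets lower at that p. Klf4, a repressor of smooth muscle genes named after its values were seen, had the largest late minus early difference of the list, -0.66 ± 0.15 SE (adjusted p = 0.295 in limma), and differed from vehicle by -0.17 ± 0.22 SE late. The largest late minus vehicle differences were 0.57 for Gata4, 0.53 for Mef2a, a MADS-box factor related to serum response factor, -0.38 for Elk1, a ternary complex factor that competes with myocardin, and -0.35 for Gata6. Their adjusted p in limma lay between 0.436 (Mef2a) and 0.688 (Gata6).

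Relatives of these genes that many other cells use were measured on the same arrays. Myh9, the non-muscle myosin heavy chain, had a late minus early difference of 0.11 ± 0.09 SE, against 0.56 for Myh11, and its second probe set gave -0.26. Tpm3 had -0.09 ± 0.12 SE, against 0.45 for Tpm1 and 0.31 for Tpm2. Cnn2 had 0.33 ± 0.20 SE and Cnn3 had 0.15 ± 0.11 SE, against 0.76 for Cnn1. The probe sets of Cnn3 and Cnn1 carry suffixes for shared sequence, so each may measure more than its own gene. Against vehicle, however, Cnn2, at 0.80 ± 0.29 SE (adjusted p = 0.385 in limma), was as high as Cnn1 at 0.76. Over the 6 relatives above the filter the median late minus early difference was 0.08, with 4 positive and none passing limma. The differences between a gene and its relative were not tested.

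**Figure D4:**
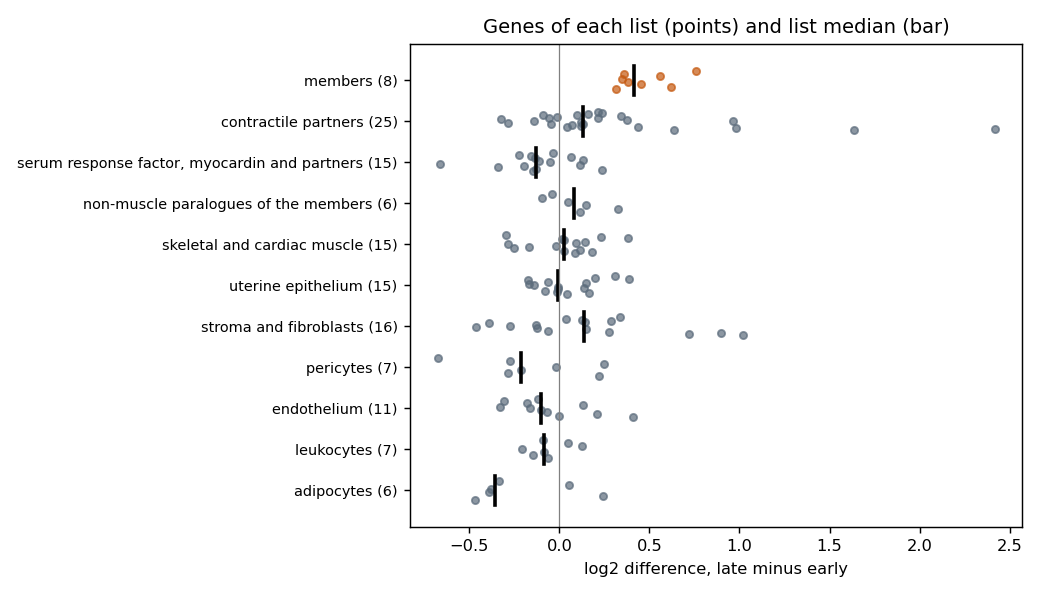
Log2 late minus early difference (horizontal axis) of each gene above the filter (points) in each group (rows, with the number of genes), with the group's median as a bar. The 8 contractile genes lie between 0.31 and 0.76 with a median of 0.42, and the medians of the other groups lie between -0.36 (adipocytes) and 0.13 (stroma and fibroblasts).

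Markers of other cells are given for the same arrays, as summed signals of those above the filter; the protocol states that adhering tissue was cut away. Skeletal and cardiac muscle markers (15 of 28 on the array) summed to 6157.5 on vehicle, 4464.5 to 5409.2 on the early and 4997.2 to 5778.4 on the late arrays. Of that vehicle sum, 2672.9 came from Pvalb alone. Under the filter were Myh1, Myh2, Myh3, Myh6, Myh7, Myh8, Myl2, Myl3, Mb, Actn2, Tnnc1, Tnni2 and Tnnt3, so most striated myosins gave no signal above the floor. Stroma markers (16 of 16) summed to 72011.6 on vehicle, 72554.3 to 75565.2 early and 79828.2 to 100253.7 late. The fibrillar collagens Col1a1, Col1a2 and Col3a1 carried this, from 14755.2 on vehicle and 15105.0 to 20589.0 early to 28794.3 to 34955.1 late. By their brightest probe sets, Col1a1 and Col3a1 were each 1.23 above vehicle late on the log2 scale. A second Col1a1 probe set was only 0.49 above it, and the other Col3a1 probe sets were 1.61 and 1.11 above it. The 13 other stroma markers, split off after their values were seen, summed to 57256.4 on vehicle, 53818.9 to 59137.1 early and 51033.9 to 65298.6 late, which overlap. Of these 13, 7 had a positive late minus early difference, the largest being those of Islr (0.34), Hoxa10 (0.29) and Col6a1 (0.27). Thy1 (-0.47) and Fbln1 (-0.27) were lower at an unadjusted p under 0.05 in limma, though neither passed after adjustment. Against vehicle, 10 of all 16 stroma markers were higher late, among them Hoxa11 by 0.71 and Hoxa10 by 0.61 on the log2 scale. Of the vehicle sum of the 13, 19861.7 came from Dcn alone. Epithelial markers (15 of 16) summed to 19825.4 on vehicle, 18626.6 to 21616.5 early and 20314.5 to 22467.8 late, and these ranges overlap.

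Pericyte markers (7 of 7) summed to 9825.1 on vehicle, 8542.5 to 9649.3 early and 7755.4 to 9922.1 late, with Kcnj8 at -1.15 and Notch3 at -0.57 late minus vehicle. Of the vehicle sum, 4795.3 came from Anpep alone. Late minus early was positive for 2 of these 7 genes, Mcam (0.25) and Rgs5 (0.22), against 48.4 percent of genes over the array, with a median of -0.22. Mcam and Rgs5 were also above vehicle late, by 0.08 and 0.11. Adipocyte markers (6 of 7, Pparg under the filter) summed to 5730.5 on vehicle, 4637.8 to 5932.7 early and 3734.1 to 4646.7 late, with Retn at -0.78 and Lep at 0.85. Endothelial markers (11 of 11) summed to 5190.4 to 6353.6 over all arrays and leukocyte markers (7 of 15, Ptprc and Cd3e among those under the filter) to 4550.8 to 5720.0. The collagens thus lay higher late like the contractile genes. The summed signal of the other stroma markers, much of it from Dcn, overlapped between early and late, and single markers went either way. The adipocyte sums were mostly lower late, with early and late ranges that just overlap. The part of these markers in the result was not tested.

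The arrays were of like quality by the values in the table. Their medians lay between 227.4 and 237.0, and the ratio of 3 prime to 5 prime signal was 1.03 to 1.20 for actin and 0.828 to 0.888 for Gapdh, with early and late arrays overlapping. On the 3 h array 12 probe sets stood 2-fold or more away from every other array, against 4 to 7 for the others. Of the 8 contractile genes, 5 had their lowest signal there. The share of all probe sets with their lowest signal on that array was not counted, so nothing particular to these genes can be read from this. Without the 3 h array the median late minus early difference of the 8 genes was 0.41, and without the 24 h array it was 0.34.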

How the data were processed

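The authors deposited 1 table of linear signal intensity per probe set; the submitters' processing notes name MAS5, with no version. In this table the mean of the central 2 to 98 percent of each array was 500.2, and this scaling was kept. Genes were named through the array's gene table. The floor was 145.9, the 40th percentile over all arrays; lower signals were raised to it and log2 was taken; the 8421 probe sets above it on at least 1 array were tested. limma 3.58.1 (R 4.3.3) compared vehicle (1 array), early DHT (3) and late DHT (3) with a variance trend, 4 residual and 1.69 prior degrees of freedom, and separately fitted a slope on log2 hours over the 6 DHT arrays. The error therefore comes from the different times of a phase, and vehicle is taken to vary by as much. All p-values are two-sided, with Benjamini-Hochberg adjustment over all probe sets and a threshold of 0.05. The fits were tested on simulated data with equal noise for every probe set and no change within a phase. The simulation does not show how they perform where these conditions do not hold.

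A gene with several probe sets is represented by its brightest. Every probe set of the 9 genes is described. Of each list of related genes described, the 4 with the largest late minus vehicle difference are named, and of each marker list the first 2 where they bear on a result; the 10 genes of most similar course had the highest Pearson correlation with the median profile. The genes and lists were chosen with earlier results of these data known. Further stroma and pericyte markers were named after their values were seen. Alternatives changed the floor (20th or 60th percentile), the scaling (quantile, or centring on the median), the filter, the variance model, the fold threshold and the probe sets used, and left out each DHT array. The number of arrays limits the precision of every value. Results of 1 further list of related genes are not reported here.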

Additional observations from a re-analysis of the deposited data

Results flagged for a closer look

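For Myh11 every early array was below vehicle and every late array above it. The early mean differed from vehicle by -0.17 ± 0.20 SE on the log2 scale and the late mean by 0.39 ± 0.20 SE. Both differences share the vehicle array. The share of all probe sets with this pattern was not counted. The test of the difference itself, late minus early, gave 0.56 ± 0.14 SE on the log2 scale and missed the threshold in limma (adjusted p = 0.322). After quantile normalization it was 0.44 ± 0.10 SE (adjusted p = 0.271).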

How the results depend on the processing

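The late minus early differences of the 8 genes kept their sign and stayed short of the threshold in all 112 recomputed values, and the median lay between 0.34 and 0.49 over 11 alternatives. The median late minus vehicle difference lay between 0.26 and 0.43. No member was called in any contrast under any alternative run, with 4 to 8 at an unadjusted p under 0.05 for late minus early. Of 104 late minus vehicle values of single genes, 1 changed sign: Des was 0.0696 without the 18 h array, and from -0.0806 to 0.0696 over the alternatives that leave out 1 array. At 2-fold in place of 1.5-fold, 0 members differed from vehicle at any time. With the floor at the 20th percentile, 2 probe sets were 1.5-fold from vehicle at 12 h, the added one being the dim Tpm2 probe set. With quantile normalization 1 was at 24 h, in place of 3. No paired analysis was possible because each group has 1 array and the labels give no replicate numbers. The lone vehicle array could not be left out of comparisons with it.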
